A study of Homo sapiens with 27 samples.

Results

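The genes described here are 10 inflammatory cytokine and chemokine genes: IL32, LIF, CCL20, IL1RN, CXCL1, CXCL2, CXCL3, IL8, CCL5 and CXCL10. They were chosen by name among 32719 genes that at least 1 deposited table lists, with no threshold, and with their read counts in T47D cells after TLE3 silencing already known. The T47D siTLE3 values below are therefore a description without a test, and the tests concern the other comparisons. The label holds as a list of secreted inflammatory mediators, with the exception that IL1RN encodes an inhibitor. Most of the 10 genes were low in these cancer cells, so raw reads are given beside levels.

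Cytokines and chemokines are secreted proteins that carry signals between cells. Chemokines draw white blood cells along a gradient through G protein-coupled receptors, and the chemokines with the ELR motif (CXCL1, CXCL2, CXCL3 and IL8) attract mainly neutrophils. Many of these genes are kept low in resting epithelial cells and are switched on by NF-kB, often together with AP-1, after signals such as TNF or IL-1, while CCL5 and CXCL10 also respond to interferon and to sensing of viral RNA. Breast cancer cells can make them as well as immune cells do.

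The study silenced the Groucho-family corepressor TLE3 or the pioneer transcription factor FOXA1 to find the genes that TLE3 regulates in luminal breast cancer cells. The groups of each line were cells given an siRNA pool against TLE3 (siTLE3), cells given a pool against FOXA1 (siFOXA1) and cells given a control siRNA with no target (siNS). All groups, siNS included, were reverse transfected with siRNA, which is itself a double-stranded RNA, and RNA was taken 48 h later. The lines were T47D, an estrogen receptor positive line, SKBR3, which carries amplified ERBB2, and MDA-MB-453, which expresses the androgen receptor. Each group had 3 libraries numbered as biological replicates. Nothing says whether these were separate cultures, so p-values measure only the spread between these samples. A single siRNA pool per target and whole-culture RNA limit the model, and in such RNA fewer expressing cells cannot be told apart from less RNA per cell.

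The 27 libraries held 15968223 to 26208135 counted reads. TLE3 fell under siTLE3 in each line (log2 fold change -1.81, -1.76 and -2.31 in T47D, SKBR3 and MDA-MB-453), and FOXA1 fell under siFOXA1 in each (-2.18, -2.24 and -2.48), with edgeR adjusted p of at most 0.0031. Across the targets, TLE3 fell by 0.79 under siFOXA1 in MDA-MB-453 and rose by 0.22 in T47D (edgeR adjusted p = 2.86e-08 and 0.0212), and FOXA1 rose by 0.54 under siTLE3 in T47D (edgeR adjusted p = 9.08e-06). The epithelial gene EPCAM averaged 214 to 495 CPM over the groups and KRT8, a luminal keratin, 1368 to 12363 CPM, where CPM is the read count relative to the scaled total of its library. The immune-cell list of 15 genes summed to 1.40 to 4.92 CPM per library in T47D and 3.34 to 5.64 CPM in MDA-MB-453. In SKBR3 it summed to 20.9 to 45.3 CPM, most of it from CSF1R. Only genes listed for a library enter its sum, here 6 to 13 of the 15. PTPRC, the leukocyte antigen CD45, had at most 4 reads in any library where it was listed. Some marker levels moved with the siRNAs: in MDA-MB-453 under siFOXA1 KRT8 rose by 1.46 and EPCAM fell by 0.33. The fibroblast list of 5 genes, of which 3 to 5 were listed per library, was mostly COL1A1. In MDA-MB-453 it summed to 109 to 124 CPM under siTLE3, 51.0 to 58.5 under siFOXA1 and 154 to 174 under siNS. The sums in those groups of T47D were 64.8 to 70.2, 44.1 to 59.3 and 109 to 126 CPM. In SKBR3 the endothelial gene CDH5 averaged 17.9 CPM under siTLE3, 10.6 under siFOXA1 and 7.10 under siNS. Of 2 endothelial genes tested there for siTLE3 against siNS, 1 rose and 1 fell, where 5.66% of all genes were called. The part of these markers in the results below was not tested. The SKBR3 libraries siTLE3 1 and siNS 3 stood apart from their groups.

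Short promoter stretches are shown first because the same NF-kB word recurs among these genes. RefSeq promoter windows (build GRCh38.p14, 250 bases before each start site) were found for 8 of the 10 genes. LIF and CCL5 were not among them. The word GGAATTTCC, searched on both strands, was present in 5 of those 8 genes and in 0.413% of 35116 windows of the same length. Only this exact word was searched, so variant NF-kB sites were not counted. A gene counts once over all its start sites, while the share is per window. CXCL1, CXCL2 and CXCL3 are close copies and not separate cases, so nothing is read from the difference between the shares. The 30 bases around each match are given 5′ to 3′ on the gene's strand, with the word in capitals.
CXCL1, chr4:73869305-73869334, plus strand: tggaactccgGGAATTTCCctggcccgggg
CXCL2, chr4:74099253-74099282, minus strand: tggagctccgGGAATTTCCctggcccggga
CXCL3, chr4:74038748-74038777, minus strand: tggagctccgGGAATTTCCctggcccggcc
IL8, chr4:73740468-73740497, plus strand: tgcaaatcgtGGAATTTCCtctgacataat
CXCL10, chr4:76023654-76023683, minus strand: aggagcagagGGAAATTCCgtaacttggag
The first base of the word lay 78 bases before the start site in CXCL1, 77 in CXCL2, 78 in CXCL3, 91 in IL8 and 176 in CXCL10. In CXCL10 the word reads on the other strand, so the printed strand shows its reverse complement. The flanks of CXCL1, CXCL2 and CXCL3 were nearly the same, while those of IL8 and CXCL10 differed from them and from each other.

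The whole windows of IL8 and CXCL10 are shown because they join the NF-kB word with another motif, and capitals mark every match to the motifs searched. The motifs were the NF-kB word above, the AP-1 word TGANTCA, the interferon-response word (TTTC, any 2 bases, TTTC) and the forkhead word TNTTTAC, each on both strands.
IL8, chr4:73740319-73740568, plus strand: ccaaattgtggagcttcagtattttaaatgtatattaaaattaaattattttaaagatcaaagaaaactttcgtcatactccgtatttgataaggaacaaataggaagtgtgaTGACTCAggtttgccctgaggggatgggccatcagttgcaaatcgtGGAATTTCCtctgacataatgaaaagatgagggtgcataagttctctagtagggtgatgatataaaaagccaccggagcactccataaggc
CXCL10, chr4:76023498-76023747, minus strand: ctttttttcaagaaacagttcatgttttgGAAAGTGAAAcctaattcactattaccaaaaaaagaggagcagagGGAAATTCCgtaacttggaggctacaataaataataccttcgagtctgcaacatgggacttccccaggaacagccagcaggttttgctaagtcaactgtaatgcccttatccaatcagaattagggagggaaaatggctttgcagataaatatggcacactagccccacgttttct
IL8 held an AP-1 match with its first base 137 bases before the start, ahead of the NF-kB match, and CXCL10 held an interferon-response match 221 bases before the start. The AP-1 word was found in 2 of 8 genes (IL8 and IL1RN) and 6.57% of all windows. The interferon-response word was found in 2 of 8 (IL1RN and CXCL10) and 3.02%, and the forkhead word in 0 of 8 and 9.58%. Here too a gene counts once over all its start sites, while the percentages are per window. A match is a run of letters and not evidence that a factor binds there.

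CXCL1, CXCL2 and CXCL3 are close copies of one another on chromosome 4, which bears on how reads could be assigned to them. Over 324 coding bases the identity was 93.5% between CXCL1 and CXCL2, 90.7% between CXCL1 and CXCL3 and 94.4% between CXCL2 and CXCL3. IL8 shared 57% to 59% of aligned coding bases with them. Coding bases 16 to 75 of each reference transcript (GENCODE), a stretch chosen for its few differences, are shown. Capitals mark positions that differ among the genes.
CXCL1, bases 16 to 75: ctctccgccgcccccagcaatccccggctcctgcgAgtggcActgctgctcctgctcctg
CXCL2, bases 16 to 75: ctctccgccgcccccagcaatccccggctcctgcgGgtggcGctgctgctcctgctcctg
CXCL3, bases 16 to 75: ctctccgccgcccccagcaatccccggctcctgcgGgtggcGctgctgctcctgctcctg
Only 2 of these 60 positions differed, against 34 over the whole coding sequence. Of the 50-base words in CXCL2, 19.6% also occurred in CXCL3 and 5.09% in CXCL1. With 75-base words these shares were 9.2% and 0%. Bases outside the coding sequence were not compared. How reads were divided among these 3 genes is thus uncertain, least so for CXCL1, and their values are read with that limit.

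**Figure D1:**
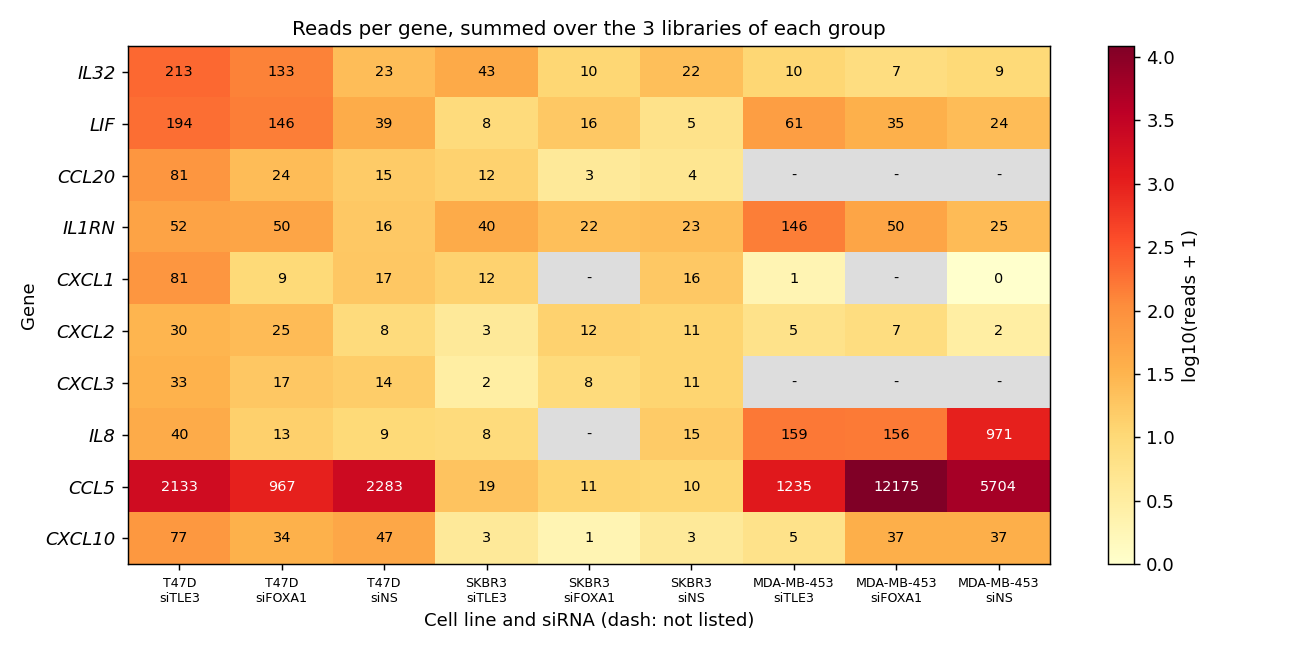
Reads of each of the 10 genes (rows) summed over the 3 libraries of each line and siRNA group (columns), with colour on a log10 scale of reads plus 1. CCL5 was the most counted gene in T47D and MDA-MB-453, at 967 to 12175 reads per group, while no gene passed 43 reads per group in SKBR3.

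Levels in the siNS groups differed between lines. Per kilobase of gene length, CCL5 stood at 26.1 ± 11.4 CPM in T47D siNS cells (SD, n = 3), and the next gene, CXCL10, at 0.630 ± 0.255 CPM. The other 8 genes lay between 0.278 and 0.0820 CPM per kilobase there, in the order CCL20, IL32, CXCL1, LIF, CXCL3, IL1RN, CXCL2 and IL8. Neighbours in that order differed by less than the larger of their SDs, apart from CXCL1 (0.244 ± 0.0540) and LIF (0.157 ± 0.0501). In MDA-MB-453 siNS cells CCL5 stood at 63.2 ± 34.4 and IL8 at 8.69 ± 2.98 CPM per kilobase, followed by CXCL10 at 0.470 ± 0.330. In SKBR3 siNS cells none of the 10 genes exceeded the 0.285 ± 0.186 CPM per kilobase of IL32. A table lists a gene only where either of the first 2 siRNA libraries had a read, so CCL20 and CXCL3 have no values in MDA-MB-453, CXCL1 has none in the siFOXA1 tables of SKBR3 and MDA-MB-453, and IL8 has none in that of SKBR3.

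In T47D cells, IL32, LIF, CCL20, CXCL1, CXCL2 and IL8 were higher in every siTLE3 library than in any siNS library. IL32, LIF and CXCL2 were also higher in every siFOXA1 library. How many of all genes separate in this way was not counted, so nothing is read from how many did here. Of all genes tested, 25.3% were called higher with siTLE3 and 26% with siFOXA1. CCL5, the most abundant of the 10, was lower on average under siFOXA1 and overlapped with siNS under siTLE3. All T47D siFOXA1 tests against siNS use the siNS libraries of the comparison known at selection, which limits them. Reads are given in the order of the libraries' column numbers.

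**Figure D2:**
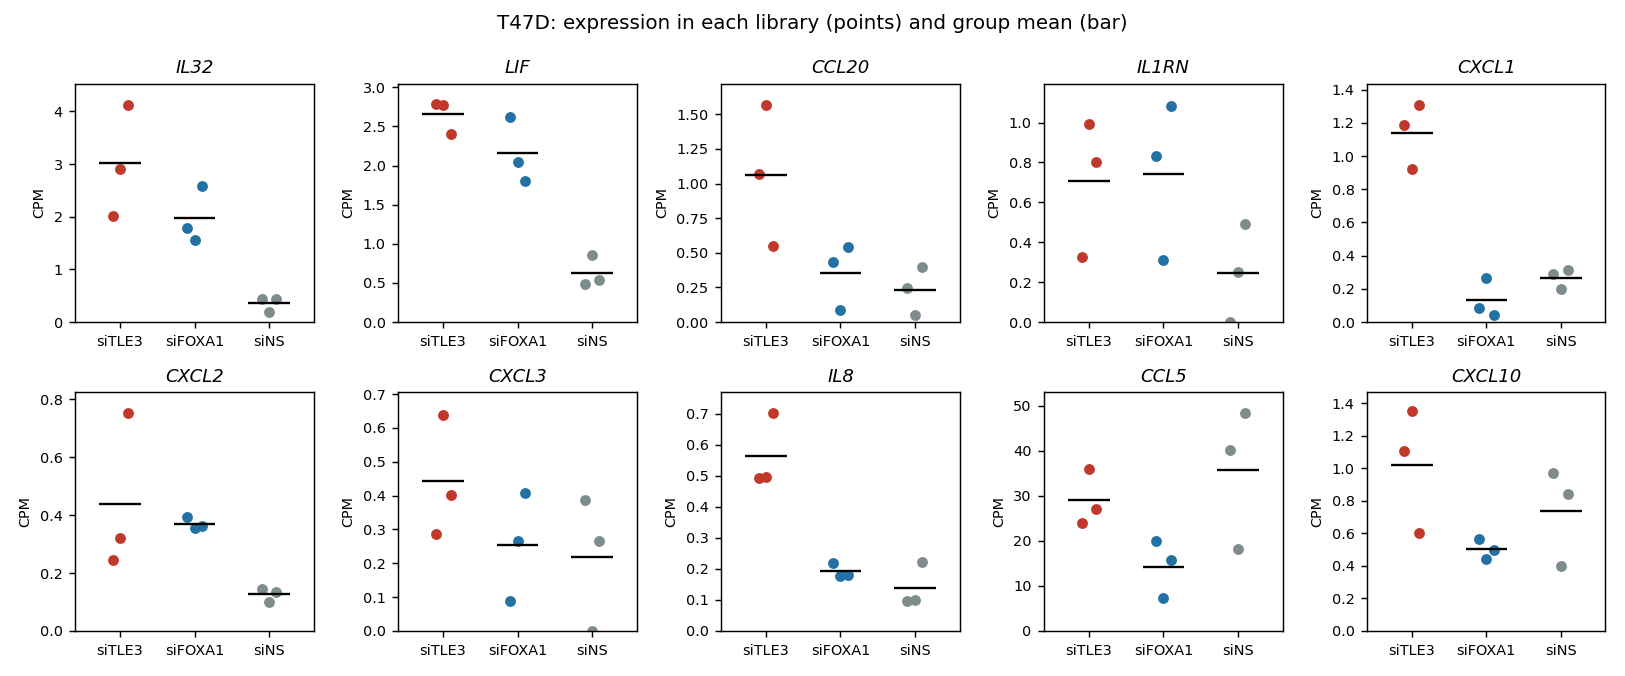
Level in CPM of each of the 10 genes in every T47D library (points), with the mean of the 3 libraries (bar), for siTLE3, siFOXA1 and siNS. IL32 and LIF were high under both siRNAs, CXCL1 was highest under siTLE3, and CCL5 was lowest under siFOXA1.

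IL32 encodes a cytokine of T cells, natural killer cells and epithelium that raises TNF and IL8 production. It lies on chr16:3115298-3131908 (hg19, plus strand). T47D cells had 49, 82 and 82 IL32 reads under siTLE3, 41, 35 and 57 under siFOXA1, and 9, 4 and 10 under siNS. The lowest siRNA library held over 3 times the reads of the highest siNS library. The means were 3.01 ± 1.06 CPM under siTLE3, 1.97 ± 0.534 under siFOXA1 and 0.361 ± 0.139 under siNS. The fitted log2 fold change against siNS was 3.02 (SE 0.39) under siTLE3. Under siFOXA1, IL32 rose by 2.41 (SE 0.39, edgeR adjusted p = 0.000157). It passed the filter on low reads through the siFOXA1 libraries, of which 3 were over the cutoff against 1 of siNS, and the siNS libraries are those of the comparison known at selection.

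LIF encodes a cytokine of the interleukin-6 family that signals through LIFR and the shared chain IL6ST to STAT3. The gene lies on chr22:30636436-30642840 (hg19, minus strand). It had 68, 78 and 48 reads under siTLE3, 60, 46 and 40 under siFOXA1, and 10, 17 and 12 under siNS. Both siRNA groups stood clear of siNS and overlapped each other. The log2 fold change was 2.09 (SE 0.30) under siTLE3. LIF rose by 1.78 (SE 0.33, edgeR adjusted p = 0.000464) under siFOXA1, against the siNS libraries of the comparison known at selection. The level was 2.66 ± 0.214 CPM under siTLE3 and 2.16 ± 0.420 CPM under siFOXA1, against 0.624 ± 0.199 CPM under siNS.

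CCL20 (chr2:228678560-228682270, hg19, plus strand), the ligand of CCR6 that draws dendritic cells and T helper 17 cells, had 26, 44 and 11 reads under siTLE3, 10, 2 and 12 under siFOXA1, and 5, 1 and 9 under siNS. The siTLE3 libraries were above the siNS libraries by CPM, the nearest pair being 0.552 and 0.400 CPM. The log2 fold change under siTLE3 was 2.17 (SE 0.57), and it was 2.82 without siNS 4. The siFOXA1 values overlapped siNS and were too low to be tested.

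Among the neutrophil chemokines, CXCL1 (chr4:74735110-74736959, hg19, plus strand) had 29, 26 and 26 reads under siTLE3, 2, 6 and 1 under siFOXA1, and 6, 4 and 7 under siNS. The siTLE3 libraries stood well apart from the rest, at 1.14 ± 0.195 CPM against 0.268 ± 0.0592 CPM in siNS, a log2 fold change of 2.05 (SE 0.42). IL8, also called CXCL8 (chr4:74606223-74609433, hg19, plus strand), had 12, 14 and 14 reads under siTLE3, 5, 4 and 4 under siFOXA1, and 2, 2 and 5 under siNS. The lowest siTLE3 library was above the highest siNS library, and the log2 fold change was 1.93 (SE 0.55), or 2.43 without siNS 4.

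CXCL2 (chr4:74962752-74965010, hg19, minus strand) had 6, 9 and 15 reads under siTLE3, 9, 8 and 8 under siFOXA1, and 3, 2 and 3 under siNS. Every library of either siRNA was above every siNS library, at counts too low for the fits. CXCL3 (chr4:74902306-74904524, hg19, minus strand) had 7, 18 and 8 reads under siTLE3, 2, 6 and 9 under siFOXA1, and 8, 0 and 6 under siNS. Its groups overlapped.

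IL1RN (chr2:113864790-113891590, hg19, plus strand) encodes the IL-1 receptor antagonist, which occupies IL1R1 without signalling. T47D cells had 8, 28 and 16 IL1RN reads under siTLE3, 19, 7 and 24 under siFOXA1, and 0, 5 and 11 under siNS, and both siRNA groups overlapped siNS. The log2 fold changes were 1.48 (SE 0.68) under siTLE3 and 1.53 (SE 0.70, edgeR adjusted p = 0.0809) under siFOXA1. The siTLE3 value was 0.92 without siNS 2 and 2.47 without siNS 4. The siFOXA1 value passed without siFOXA1 2 (1.90, edgeR adjusted p = 0.0406) or without siNS 4 (2.52, edgeR adjusted p = 0.0373).

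CCL5 (chr17:34198495-34207797, hg19, minus strand), also known as RANTES, draws T cells and monocytes. It had 583, 1009 and 541 reads under siTLE3, 455, 165 and 347 under siFOXA1, and 830, 365 and 1088 under siNS. The middle siNS library, siNS 3, was the low one, and at 18.3 CPM it fell below the highest siFOXA1 library at 19.9 CPM. CCL5 fell by 1.33 on the log2 scale under siFOXA1 (SE 0.33, edgeR adjusted p = 0.00376), and the call held with each library left out in turn. Under siTLE3 the log2 fold change was -0.30 (SE 0.24). The means were 29 ± 6.18 CPM under siTLE3 and 14.3 ± 6.39 CPM under siFOXA1, against 35.7 ± 15.6 CPM under siNS.

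CXCL10 (chr4:76942273-76944650, hg19, minus strand), a classical interferon-induced chemokine that acts on CXCR3, had 27, 38 and 12 reads under siTLE3, 13, 10 and 11 under siFOXA1, and 20, 8 and 19 under siNS. The groups overlapped in both comparisons with siNS. Its log2 fold change was 0.48 (SE 0.42) under siTLE3 and -0.56 (SE 0.43, edgeR adjusted p = 0.289) under siFOXA1.

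By count, 8 of the 10 genes passed the filter on low reads in the T47D siTLE3 comparison, of which 5 were called higher and 3 were not called, where 51.9% of all 15821 genes tested were called (25.3% higher and 26.6% lower). That comparison was known when the genes were chosen, and IL32, CCL20, CXCL1 and IL8 reached the filter through their siTLE3 libraries. Nothing is read from the count. In the siFOXA1 comparison 5 of the 10 were tested, 2 rose (IL32 and LIF), 1 fell (CCL5) and 2 did not pass, and 52.8% of all 15553 genes tested were called (26% higher and 26.8% lower). Both T47D comparisons use the same siNS libraries. The 3 of 5 called here were thus close to the share over all genes.

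The T47D siRNA groups were also set side by side directly, again as a description. CXCL1 was higher in each siTLE3 library than in any siFOXA1 library, with a log2 difference of 3.06 (SE 0.53), or 4.0 without siFOXA1 2. CCL20 (1.62, SE 0.55), IL8 (1.53, SE 0.47), CXCL10 (1.06, SE 0.40) and CCL5 (1.04, SE 0.26) were also higher in every siTLE3 library than in any siFOXA1 library. IL32 (0.62, SE 0.29), LIF (0.33, SE 0.23) and IL1RN (-0.03) overlapped between the siRNAs. Of the 8 genes fitted, 5 were called, where 44.3% of all genes tested were called (22.5% higher and 21.8% lower). The count was 3 without the filter, 2 with DESeq2 and 2 to 4 with 1 library left out. CXCL1 and IL8 were over the cutoff in siTLE3 libraries alone, these values chose the genes, and nothing is read from the count.

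In SKBR3 cells these genes were barely transcribed, and IL32 gave the clearest difference. IL32 had 12, 13 and 18 reads under siTLE3, 3, 4 and 3 under siFOXA1, and 2, 9 and 11 under siNS. Each siTLE3 library was above each siNS library, the nearest pair being 0.659 and 0.599 CPM. Against siNS the log2 fold change was 1.14 (SE 0.59, edgeR adjusted p = 0.285). Against siFOXA1, IL32 was higher under siTLE3 by 2.32 (SE 0.50, edgeR adjusted p = 0.0112), a call lost when siFOXA1 1, 2 or 3 was left out (adjusted p = 0.0547, 0.0548 and 0.0616). Only its siTLE3 libraries were over the filter's cutoff, so it was tested there because it was high in them. IL32 was 1 of 2 genes tested there, where 20% of all genes tested were called (10.7% higher and 9.24% lower).

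IL1RN was the only other of the 10 genes tested in SKBR3. It had 8, 16 and 16 reads under siTLE3, 10, 5 and 7 under siFOXA1, and 2, 16 and 5 under siNS, all overlapping. The log2 fold change was 0.95 (SE 0.67, edgeR adjusted p = 0.424) for siTLE3 against siNS and 1.07 (SE 0.50, edgeR adjusted p = 0.170) for siTLE3 against siFOXA1. CCL5, so abundant in the other lines, had 10, 6 and 3 reads under siTLE3, 1, 3 and 7 under siFOXA1, and 4, 1 and 5 under siNS. LIF had 0, 7 and 1 reads under siTLE3, 7, 2 and 7 under siFOXA1, and 0, 5 and 0 under siNS.

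The remaining SKBR3 genes had between 0 and 16 reads in any library. A single library often held most of them: CXCL1 had 0, 16 and 0 reads under siNS, CCL20 had 0, 10 and 2 under siTLE3, and CXCL3 had 1, 0 and 10 under siNS. In edgeR 0 of the 2 genes tested passed for siTLE3 against siNS, 0 had an unadjusted p under 0.05, and DESeq2 also called 0, where 5.66% of all 14382 genes tested were called (3.67% higher and 1.99% lower). The count was also 0 without siTLE3 1 and siNS 3. None of the 8 genes listed for siFOXA1 against siNS had enough reads to be tested, where 19.1% of all genes tested were called (10.4% higher and 8.75% lower).

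In MDA-MB-453 cells IL8 fell under either siRNA, CCL5 fell under siTLE3 and rose under siFOXA1, and IL1RN rose under siTLE3. Of 8 genes listed for siTLE3 4 were tested, 1 rose, 2 fell and 1 did not pass, where 32% of all 14575 genes tested were called (15.7% higher and 16.3% lower). Of 7 genes listed for siFOXA1 4 were tested, 1 rose, 1 fell and 2 did not pass, where 47.1% of all 14586 were called (23.4% higher and 23.7% lower). The comparisons share their siNS libraries, and the second share is close to that of all genes. For siTLE3, LIF and IL1RN reached the filter on low reads through their siTLE3 libraries, and CXCL10, low there, was not kept. Nothing is read from that count.

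**Figure D3:**
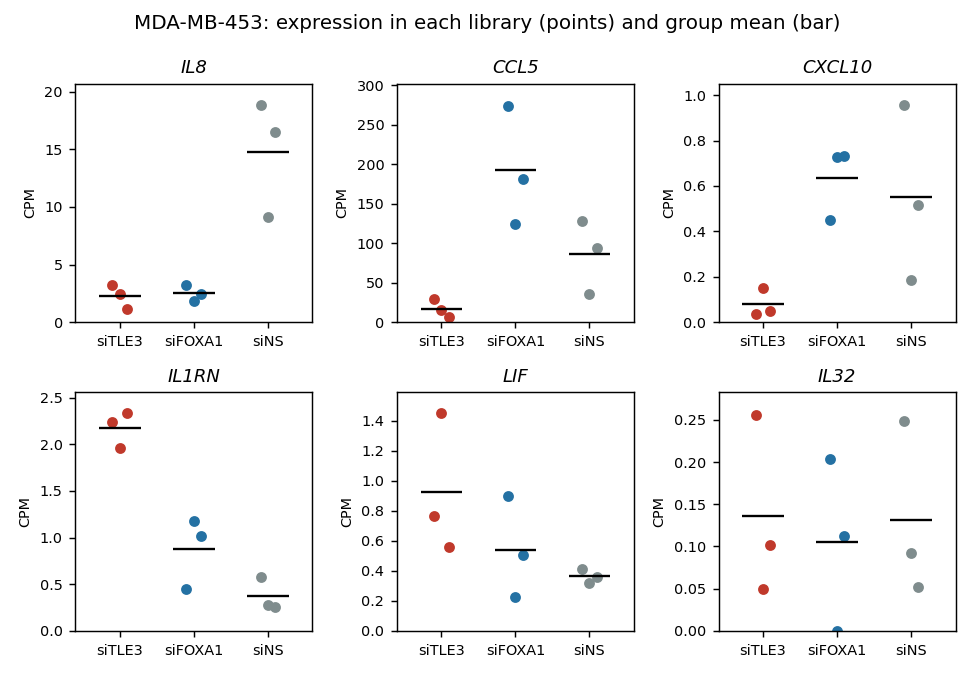
Level in CPM of 6 of the genes in every MDA-MB-453 library (points), with the mean of the 3 libraries (bar), for siTLE3, siFOXA1 and siNS. IL8 was low under both siRNAs, CCL5 was low under siTLE3 and high under siFOXA1, and IL1RN was highest under siTLE3.

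IL8 had 88, 49 and 22 reads under siTLE3, 80, 32 and 44 under siFOXA1, and 454, 198 and 319 under siNS. The siNS libraries were far above all 6 siRNA libraries. The means were 2.26 ± 1.07 CPM under siTLE3 and 2.51 ± 0.735 CPM under siFOXA1, against 14.8 ± 5.08 CPM under siNS. IL8 fell by 2.68 on the log2 scale (SE 0.31, edgeR adjusted p = 1.78e-05) under siTLE3 and by 2.53 (SE 0.25, edgeR adjusted p = 9.94e-08) under siFOXA1. The direct difference between the siRNAs was -0.14 (edgeR adjusted p = 0.748), and its sign turned when siTLE3 3 (0.17) or siFOXA1 1 (0.12) was left out.

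CCL5 had 805, 312 and 118 reads under siTLE3, 6732, 2224 and 3219 under siFOXA1, and 3101, 780 and 1823 under siNS. The siTLE3 libraries were below every other library of the line, and the siFOXA1 and siNS libraries overlapped at 125 and 129 CPM. The means were 17.0 ± 11.8 CPM under siTLE3 and 193 ± 75.6 CPM under siFOXA1, against 86.3 ± 46.9 CPM under siNS. CCL5 fell by 2.31 (SE 0.44, edgeR adjusted p = 0.00121) under siTLE3. It rose by 1.17 (SE 0.29, edgeR adjusted p = 0.00293) under siFOXA1, a call lost without siFOXA1 1 (0.81, edgeR adjusted p = 0.0515) and with DESeq2 (adjusted p = 0.113). Directly, siTLE3 cells had less CCL5 than siFOXA1 cells by a log2 difference of -3.45 (SE 0.29, edgeR adjusted p = 9.08e-10).

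The library numbered 1 had the highest CPM of CCL5 and of IL8 in each MDA-MB-453 group. Those numbers are column names, and nothing in the labels ties libraries of different groups together by them. Without the libraries numbered 1, an alternative chosen after seeing the data, 3 genes were called for siTLE3 and 3 for siFOXA1. With all libraries 32% and 47.1% of all genes tested were called. The shares of the smaller fits are not given here, so nothing is read from these counts. CCL5 under siFOXA1 was 1.25 without the libraries numbered 1 (edgeR adjusted p = 0.00463).

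IL1RN had 61, 39 and 46 reads under siTLE3, 11, 21 and 18 under siFOXA1, and 14, 6 and 5 under siNS. The siTLE3 libraries stood above all others, at 2.17 ± 0.195 CPM against 0.372 ± 0.181 CPM under siNS. IL1RN rose by 2.49 (SE 0.40, edgeR adjusted p = 0.000314) under siTLE3. It passed the filter through the siTLE3 libraries, of which 3 were over the cutoff against 1 of siNS. Under siFOXA1 the change was 1.17 (SE 0.53, edgeR adjusted p = 0.0786), which passed without siFOXA1 1 (1.5, edgeR adjusted p = 0.0461), without siNS 1 (1.67, edgeR adjusted p = 0.0439) or without both (2.02, edgeR adjusted p = 0.0166). Directly, siTLE3 exceeded siFOXA1 by 1.35 (SE 0.35, edgeR adjusted p = 0.00252).

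LIF had 21, 29 and 11 reads under siTLE3, 22, 4 and 9 under siFOXA1, and 10, 7 and 7 under siNS. All siTLE3 libraries were above siNS by CPM, and the log2 fold change was 1.3 (SE 0.49, edgeR adjusted p = 0.0565), with the siTLE3 libraries alone over the cutoff. CXCL10 had 1, 3 and 1 reads under siTLE3, 11, 13 and 13 under siFOXA1, and 23, 4 and 10 under siNS. Its siTLE3 libraries were below all others. CXCL10 was not kept by the filter for siTLE3, and it was called lower there in the fit without a filter and in the fit of 9 libraries. Under siFOXA1 its change was 0.16 (SE 0.55, edgeR adjusted p = 0.834).

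IL32, the gene with the largest fitted rise in T47D, had 7, 1 and 2 reads under siTLE3, 5, 0 and 2 under siFOXA1, and 6, 2 and 1 under siNS in MDA-MB-453. CXCL2 had 3, 2 and 0 reads under siTLE3, 0, 5 and 2 under siFOXA1, and 0, 1 and 1 under siNS. CXCL1 had 0, 1 and 0 reads under siTLE3 and 0, 0 and 0 under siNS. None of these 3 had enough reads to be tested there. Directly between the siRNAs, 2 of the 4 genes tested were called in this line (CCL5 and IL1RN), where 53.1% of all genes tested were called (27% higher and 26.1% lower).

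**Figure D4:**
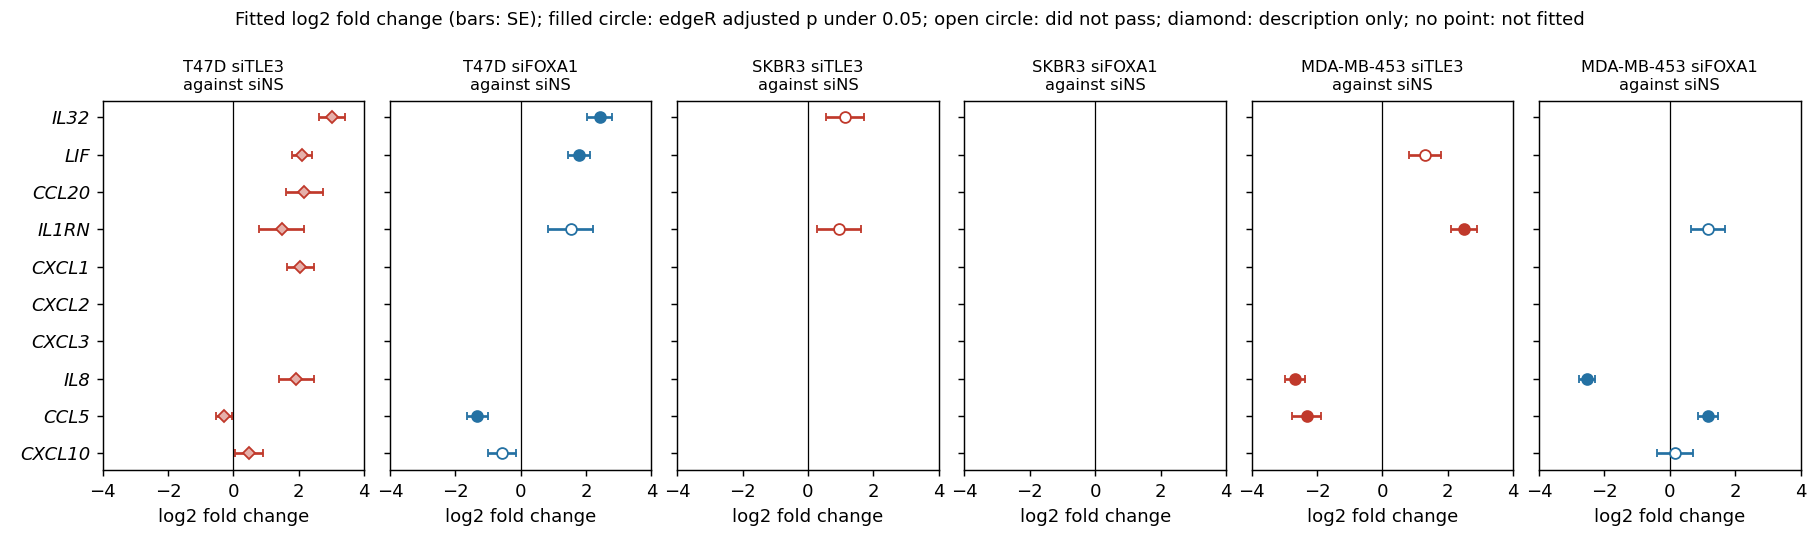
Fitted log2 fold change against siNS (horizontal axis, bars are SE) of each gene in the 6 comparisons. Filled circles passed (edgeR adjusted p under 0.05), open circles did not, and diamonds mark the T47D siTLE3 values given as a description. CCL5 was at -1.33 in T47D and 1.17 in MDA-MB-453 under siFOXA1, and IL8 was at -2.68 and -2.53 in MDA-MB-453.

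Whether the siFOXA1 effect itself differed between the 3 lines was tested for 5 of the 10 genes, of which 2 passed, where 33.8% of all 16138 genes tested passed. CCL5 fell in T47D and rose in MDA-MB-453 (edgeR adjusted p for the difference = 0.00598). IL32 rose in T47D, while SKBR3 had 3, 4 and 3 reads under siFOXA1 against 2, 9 and 11 under siNS, and MDA-MB-453 had 5, 0 and 2 against 6, 2 and 1 (edgeR adjusted p for the difference = 0.00706). In this test IL32 was high only in the T47D siFOXA1 libraries. The T47D siNS libraries used here are those of the comparison known at selection. LIF, IL1RN and CXCL10 did not pass (edgeR adjusted p = 0.491, 0.443 and 0.645). The siTLE3 effect was tested between SKBR3 and MDA-MB-453 for 5 genes. In edgeR 0 passed, 1 had an unadjusted p under 0.05 (CCL5, adjusted p = 0.357) and DESeq2 called 0, where 0.982% of all genes tested passed. IL8, LIF and CCL5 had at most 10 reads in any SKBR3 library used there, so a difference could easily be missed. The result does not show that the lines respond alike. The T47D siTLE3 effect was left out of that test because of how the genes were chosen, and the IL8 difference between T47D and MDA-MB-453 under siTLE3 was not tested.

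Genes of the NF-kB pathway were followed as a list of 30. In T47D under siTLE3 15 rose, 6 fell and 9 did not pass, with a median log2 fold change of 0.29 against 0.01 over all genes, of which 51.9% were called. TRAF1, a signalling adaptor that NF-kB induces, rose by 1.56 (SE 0.32), TNFAIP3, which encodes the feedback inhibitor A20, by 1.23 (SE 0.22) and the subunit RELB by 1.08 (SE 0.20). The adaptor MYD88 fell by 0.95. TNFAIP3 had 203, 282 and 150 reads in T47D under siTLE3, against 74, 46 and 115 under siNS, and 71, 58 and 83 under siFOXA1 overlapped siNS.

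Under siFOXA1 in T47D 10 of the 30 rose, 8 fell and 12 did not pass (median -0.11), where 52.8% of all genes were called. TRAF1 and RELB rose by 1.29 (SE 0.38) and 1.06 (SE 0.22), while TLR3, a sensor of double-stranded RNA, fell by 1.93 (SE 0.30) and the inhibitor of apoptosis BIRC3 by 1.20 (SE 0.12). SKBR3 had 2 risen and 1 fallen of 29 with siTLE3, and 4 risen and 1 fallen of 28 with siFOXA1, where 5.66% and 19.1% of all genes were called. In MDA-MB-453 6 rose, 5 fell and 18 did not pass after TLE3 silencing, and 7 rose, 6 fell and 16 did not pass after FOXA1 silencing, where 32% and 47.1% of all genes were called. TNFAIP3 had 39, 17 and 7 reads in MDA-MB-453 under siTLE3, 181, 97 and 143 under siFOXA1, and 94, 38 and 58 under siNS. It fell by 1.67 (SE 0.42, edgeR adjusted p = 0.00789) and rose by 1.27 (SE 0.24, edgeR adjusted p = 0.000296).

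Of 15 AP-1 and STAT3 pathway genes, T47D under siTLE3 had 7 risen, 1 fallen and 5 not passed of 13 tested, with FOS, an immediate early subunit of AP-1, up by 1.68 (SE 0.48). T47D under siFOXA1 had 3 risen and 2 fallen of 13. FOS rose there by 1.40 (SE 0.53) and FOSL2 by 1.10 (SE 0.09), and SOCS3, the feedback inhibitor of STAT3 signalling, fell by 1.02 (SE 0.24). Over all genes 51.9% were called with siTLE3 and 52.8% with siFOXA1. With siTLE3 in MDA-MB-453 6 of 13 rose and 1 fell, and with siFOXA1 7 rose and 2 fell, where 32% and 47.1% of all genes were called. The immediate early factor EGR1 rose there by 2.30 (SE 0.10) under siTLE3, with 1364, 1070 and 866 reads against 248, 224 and 175 under siNS. Under siFOXA1 EGR1 fell by 1.14 (SE 0.20), while JUN rose by 1.44 (SE 0.07), FOS by 1.66 (SE 0.38) and FOSL2 by 1.53 (SE 0.08). In SKBR3 only FOSL2 passed with siTLE3, a rise of 0.86 (SE 0.20), and 4 rose and 1 fell with siFOXA1. Over all genes 5.66% and 19.1% were called in SKBR3.

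Receptors for these ligands were mostly absent or low, with 7 to 10 of 17 tested in each comparison with siNS. Of those tested, 2 rose and 3 fell in T47D with siTLE3 and 1 rose and 2 fell with siFOXA1. In MDA-MB-453 1 rose and 3 fell with siTLE3, and 4 rose and 3 fell with siFOXA1. In SKBR3 1 fell with siTLE3, and 1 rose and 1 fell with siFOXA1. Over all genes 51.9% were called with siTLE3 and 52.8% with siFOXA1 in T47D. These shares were 32% and 47.1% in MDA-MB-453, and 5.66% and 19.1% in SKBR3. CXCR1, a receptor for IL8, rose in MDA-MB-453 under siFOXA1 by 5.43 (SE 0.30, edgeR adjusted p = 3.15e-11), with 219, 152 and 161 reads against 6, 2 and 5 under siNS. It had 12, 9 and 19 reads under siTLE3. Under siFOXA1 the decoy receptor IL1R2 fell by 1.73 (SE 0.53). The sequences of CXCR1 and CXCR2 were not compared, so how reads were divided between these related genes was not checked. IL8 itself was lower in both siRNA groups than in siNS. CXCR2, the receptor that the CXCL1 group shares with IL8, had at most 1 read in any MDA-MB-453 library where it was listed. LIFR rose under siFOXA1 in T47D by 1.01 (SE 0.10) and in MDA-MB-453 by 1.44 (SE 0.23), while its partner chain IL6ST fell by 0.75 (SE 0.08) and by 1.02 (SE 0.15).

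The IL-1 receptor IL1R1, on which the IL1RN product acts, stood in MDA-MB-453 at 413 ± 22.4 CPM under siTLE3 and 293 ± 2.32 CPM under siFOXA1, against 639.7 ± 69.5 CPM under siNS. It fell by 0.64 (SE 0.08, edgeR adjusted p = 3.48e-05) under siTLE3 and by 1.12 (SE 0.07, edgeR adjusted p = 5.06e-10) under siFOXA1. Its co-receptor IL1RAP rose by 1.01 (SE 0.10) under siTLE3. CCR1, a CCL5 receptor, rose by 1.37 (SE 0.40, edgeR adjusted p = 0.00894) under siFOXA1 in this line, with 40, 35 and 38 reads against 9, 17 and 21 under siNS. In SKBR3 under siTLE3 CCR1 fell by 2.29 (SE 0.50, edgeR adjusted p = 0.0340), with 3, 8 and 3 reads against 28, 33 and 16.

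Interferon response genes, which share inducers with CCL5 and CXCL10, were followed as a list of 25. In T47D under siFOXA1 20 of 23 tested fell and 3 did not pass (median -1.51 against 0.00161 over all genes, of which 26.8% were called lower). IFI44L fell by 2.95 (SE 0.39) and OAS2, an antiviral enzyme, fell by 2.84 (SE 0.33). In T47D under siTLE3 1 rose, 3 fell and 20 did not pass, where 51.9% of all genes were called. In MDA-MB-453 under siTLE3 1 rose, 13 fell and 9 did not pass (median -0.55 against -0.01 over all genes, of which 16.3% were called lower), and the type III interferon IFNL1 fell by 1.98 (SE 0.41). IFIT2 fell by 1.91 (SE 0.34) and IFNB1, interferon beta, fell by 1.65 (SE 0.38). Under siFOXA1 in that line 5 rose, 8 fell and 11 did not pass, where 47.1% of all genes were called. GBP1 rose there by 1.42 (SE 0.21). In SKBR3 2 of 12 tested rose under siTLE3 and 2 of 13 under siFOXA1, and the others did not pass. Over all genes 5.66% and 19.1% were called in SKBR3.

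The interferon genes themselves were detected. IFNB1 had 204, 91 and 39 reads in MDA-MB-453 under siTLE3, 270, 159 and 205 under siFOXA1, and 526, 165 and 297 under siNS. In T47D it had 49, 76 and 26 reads under siTLE3, 20, 5 and 13 under siFOXA1, and 20, 19 and 59 under siNS. The siNS cells had also received siRNA, so the level of this response without transfection was not measured.

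**Figure D5:**
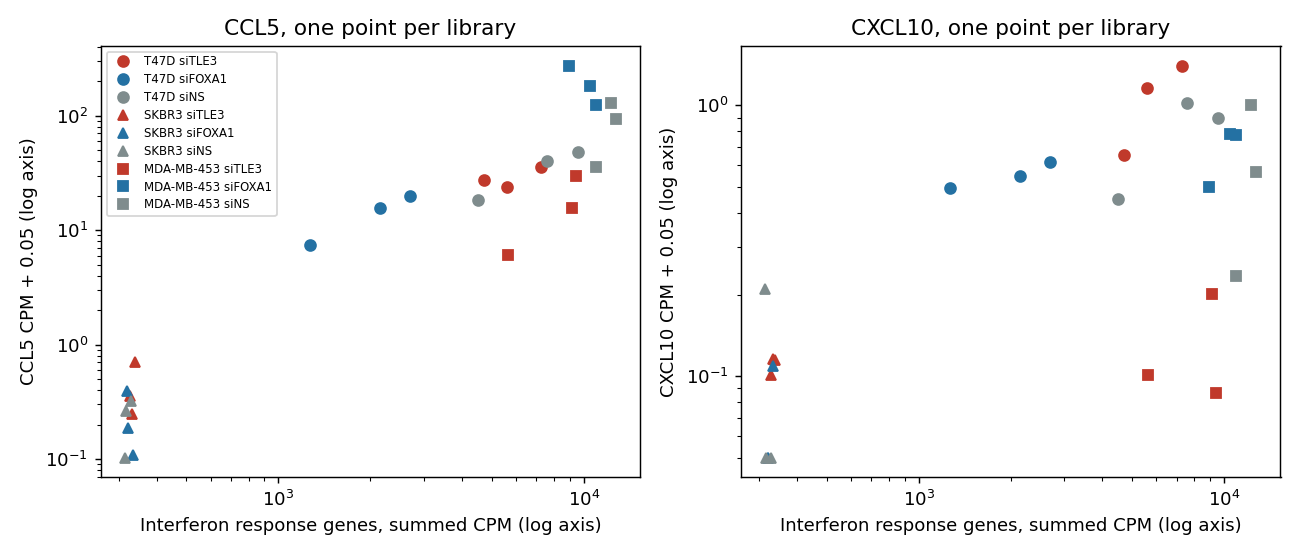
CPM of CCL5 (left) and CXCL10 (right), each plus 0.05, against the summed CPM of the interferon response genes in each of the 27 libraries, on log axes. Of the 25 genes, 20 to 25 were listed for a library and summed. SKBR3 libraries sit at the low end of both axes, T47D siFOXA1 libraries lie below the other T47D libraries on the horizontal axis, and MDA-MB-453 siTLE3 libraries lie lowest in their line for CCL5.

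Summed over that list, T47D libraries had 5599, 7264 and 4707 CPM under siTLE3, 2699, 1272 and 2155 under siFOXA1, and 7592, 4489 and 9558 under siNS. The siNS 3 library was lowest of its group for this sum, for CCL5 and for CXCL10. MDA-MB-453 libraries had 9441, 9155 and 5646 CPM under siTLE3, 8937, 10963 and 10441 under siFOXA1, and 12258, 10950 and 12722 under siNS. All SKBR3 libraries had 315 to 338 CPM. The sums cover the genes listed for a library, which were 20 or 22 of the 25 in SKBR3, 24 in MDA-MB-453 siTLE3 and 25 elsewhere. Whether the level of the interferon response has a part in the CCL5 and CXCL10 values was not tested.

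A list of 62 other cytokines had 14 to 18 tested genes in each comparison with siNS. CCL28, a mucosal chemokine, was at 206 ± 11.7 CPM in T47D under siFOXA1 against 27.8 ± 1.96 under siNS (2.89, SE 0.08, edgeR adjusted p = 8.18e-11). In MDA-MB-453 under siFOXA1 it was at 108 ± 5.53 against 27.5 ± 0.417 CPM under siNS (1.97, SE 0.07, edgeR adjusted p = 1.53e-13). TNF had 61, 92 and 70 reads in T47D under siTLE3, against 24, 9 and 32 under siNS, and rose by 1.59 (SE 0.33). CCL22, which draws regulatory T cells, rose by 1.60 (SE 0.32) in T47D under siTLE3, by 1.28 (SE 0.32) in T47D under siFOXA1, by 1.09 (SE 0.21) in SKBR3 under siTLE3 and by 2.06 (SE 0.34) in MDA-MB-453 under siFOXA1.

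Over the list in T47D, 7 rose, 1 fell and 9 did not pass with siTLE3, and 8 rose, 3 fell and 6 did not pass with siFOXA1, where 51.9% and 52.8% of all genes were called. With siFOXA1 IL15 fell by 1.95 (SE 0.42), TNFSF10 fell by 1.51 (SE 0.17) and IL24 rose by 1.62 (SE 0.50). SKBR3 had 2 risen, 1 fallen (IL12A, -1.31) and 14 not passed with siTLE3, where 5.66% of all genes were called. It had 1 risen, 4 fallen and 13 not passed with siFOXA1, where 19.1% of all genes were called. CXCL16, a ligand of CXCR6, had 37, 46 and 45 reads in SKBR3 under siTLE3 against 8, 15 and 10 under siNS and rose by 2.12 (SE 0.36, edgeR adjusted p = 0.0141). MDA-MB-453 had 3 fallen and 11 not passed with siTLE3, where 32% of all genes were called. The death ligand TNFSF10 fell there by 1.16 (SE 0.09). MDA-MB-453 had 3 risen and 13 not passed with siFOXA1, where 47.1% of all genes were called.

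The genes most alike in level over the 27 libraries were sought among 12582 genes by Pearson's r of log2 CPM, a description in which differences between the lines carry most of the variation. CCL5 was closest to UBA7 (r = 0.980), the activating enzyme for ISG15, and to IFIT2 (r = 0.976). CXCL10 was closest to RARRES3 (r = 0.915) and LGALS9 (r = 0.898). IL32 was closest to JAZF1 (r = 0.904) and NSG1 (r = 0.890), and LIF to ZNF35 (r = 0.919) and WTIP (r = 0.907). CCL20, CXCL1 and IL8 were not listed in all tables and were left out.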

How the data were processed

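The submitters' processing notes name the hg19 build and the tools STAR 2.5, DESeq2 and HTSeq 0.6.1. Their settings, and whether counting used strand, are not given in the sources used here. The authors deposited 1 table per siRNA and line, with read counts per gene, values derived from them, and their own log2 fold change and p-value, per the file headers. Only the deposited counts entered the fits, which were made with R 4.3.3 and edgeR 4.0.16.

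For each comparison of 3 with 3 libraries, counts were scaled by TMM, filtered by filterByExpr and tested 2-sided with glmQLFTest over all genes. A gene was called where its p, adjusted by Benjamini-Hochberg, was under 0.05. SE is the size of the log2 fold change over the square root of F. Differences between lines used line-by-siRNA terms. CPM levels use TMM over all 27 libraries. A line's siNS columns held the same values in its 2 tables. The fits were tested on simulated data before use.

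Libraries are named by their column number, which for T47D siTLE3, T47D siNS and MDA-MB-453 siNS is not a labelled replicate number. No pair of libraries within a group differed by as little as sampling noise (lowest chi-square per degree of freedom 2.71). The 10 genes and all lists were chosen with earlier results of these data known. Each of the 10 genes that was tested in a comparison with siNS is named there, and some with too few reads are not. Of a list, up to 4 passing genes among those with the largest change are named, not always in order of size. A gene so named, or a receptor chain of a protein described, is followed in other comparisons. The genes most alike were sought by Pearson's r of log2(CPM + 0.5), and those for IL1RN are not reported here. Alternatives were RLE factors, no filter, DESeq2 1.42.0, a fit of 9 libraries of a line, a replicate block, leaving out each library, and leaving out libraries that stood apart. Sequences are from RefSeq (GRCh38.p14) and GENCODE transcripts, and gene positions are hg19 as deposited. Counts of a few reads have a large counting error, which limits the precision of most values in SKBR3.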

Additional observations from a re-analysis of the deposited data

Results flagged for a closer look

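The effect of siFOXA1 differed between the 3 lines for 2 of the 5 genes tested, by an F test on the terms of line by siRNA. For CCL5 the edgeR adjusted p was 0.00598, with 14.3 ± 6.39 CPM under siFOXA1 against 35.7 ± 15.6 CPM under siNS in T47D, 0.179 ± 0.146 against 0.180 ± 0.114 CPM in SKBR3, and 193 ± 75.6 against 86.3 ± 46.9 CPM in MDA-MB-453. Its rise in MDA-MB-453 alone was not called with DESeq2 (adjusted p = 0.113) or, in edgeR, without siFOXA1 1 (adjusted p = 0.0515). For IL32 the edgeR adjusted p was 0.00706, with 1.97 ± 0.534 CPM under siFOXA1 against 0.361 ± 0.139 CPM under siNS in T47D, 0.169 ± 0.0191 against 0.394 ± 0.256 CPM in SKBR3, and 0.105 ± 0.102 against 0.131 ± 0.104 CPM in MDA-MB-453. Both calls of the difference held with each library left out in turn. For IL32 this is no sign of stability, since it was high only in the T47D siFOXA1 libraries of this test. The T47D siNS libraries are also those of the comparison known at selection.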

How the results depend on the processing

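Among the 10 genes, DESeq2 called 1 gene for MDA-MB-453 siFOXA1 against siNS (2 with edgeR). For T47D siTLE3 against siFOXA1 the count was 3 without the filter and 2 with DESeq2 (5 with edgeR). Leaving out 1 library at a time gave 5 to 6 for T47D siTLE3 (no sign of stability, since those values chose the genes), 3 to 4 for T47D siFOXA1, 0 to 0 for SKBR3 siTLE3 and siFOXA1, 3 to 4 for MDA-MB-453 siTLE3 and 2 to 3 for MDA-MB-453 siFOXA1, each against siNS. For siTLE3 against siFOXA1 it gave 2 to 4 in T47D, 0 to 1 in SKBR3 and 2 to 3 in MDA-MB-453, and between lines 2 to 2 for siFOXA1 and 0 to 0 for siTLE3. With all libraries, the genes tested against siNS (siTLE3, then siFOXA1) numbered 8 and 5 in T47D, 2 and 0 in SKBR3 and 4 and 4 in MDA-MB-453. The 0 of SKBR3 siFOXA1 is thus no sign of stability. Shares over all genes are not given beside these counts, so nothing is read from them. The sign turned for CXCL10 under siFOXA1 in MDA-MB-453 without siNS 2 (values without 1 library ran between -0.25 and 0.86) and for IL8 between the siRNAs there without siTLE3 3 (0.17) or siFOXA1 1 (0.12), with values between -0.50 and 0.17. The causes were not tested.

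Over all genes, SKBR3 siTLE3 against siNS had 814 calls, 1502 with DESeq2, 1962 in the fit of 9 libraries and 4161 without siTLE3 1 and siNS 3. SKBR3 siTLE3 against siFOXA1 had 2836 calls, and 1336 to 5732 with 1 library left out (5732 without siTLE3 1, 1336 without siFOXA1 3). The siTLE3 effect between SKBR3 and MDA-MB-453 had 153 calls, 494 with DESeq2 and 1253 without those 2 SKBR3 libraries. Whether the numbers pair the libraries is not settled. Same-numbered SKBR3 siTLE3 and siNS libraries had deviations correlated at 0.438, -0.0795 and 0.560. Those numbered 1 and 3 correlated best with their own number, and that numbered 2 did not. For SKBR3 siFOXA1 against siNS and siTLE3 against siFOXA1, such values ran from -0.0478 to 0.121. With a replicate block the 10 genes had 0 calls for SKBR3 siTLE3 (3641 over all genes), 0 for SKBR3 siFOXA1 (2110), 1 for SKBR3 siTLE3 against siFOXA1 (2893) and 3 for MDA-MB-453 siTLE3 against siFOXA1 (7607). The cause of these moves was not tested. At these depths 8 of the 10 genes had too few reads to be tested in SKBR3.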
